A study of Homo sapiens with 18 samples.

Results

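IMR90 is a human lung fibroblast line, and IMR90 ER:RAS cells carry a retrovirally introduced fusion of an oestrogen receptor domain to the RAS oncoprotein that 4-hydroxytamoxifen (4OHT) switches on, so that the cells enter oncogene-induced senescence (OIS). The comparison described here asks in which genes the response to inhibition of N-myristoyltransferases (NMTs) depended on that senescent state. It takes the mean effect of 2 NMT inhibitors (NMTi) against vehicle in senescent cells and subtracts the same difference in control cells. All 18 libraries of the series entered, and the difference of differences was estimated for 14341 genes of 28266 listed, after 6836 with no count and others too low to test were set aside. The 6 groups held 3 libraries each. Control (DMSO) cells had no 4OHT and senescent (4OHT) cells had 100 nM. Both were cultured for 7 days and then given DMSO, IMP1088 at 300 nM or DDD86481 at 1.5 µM for 3 days, with RNA collected on day 10. Every group, the controls included, carried ER:RAS, which here is 1 cell line, and p-values measure the spread between these libraries. The labels do not say whether the 3 replicates of a group were separate cultures, while the study's figure legends describe replicates as independent experiments.

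NMTs attach the fatty acid myristate to an N-terminal glycine of many proteins, which lets those proteins sit on membranes. ARF GTPases are among them, and myristoylated ARF1 recruits the COPI coat, which forms the vesicles that carry proteins back to the endoplasmic reticulum (ER). Src-family kinases, G-protein alpha subunits and MARCKS proteins are other well-known substrates. Senescent cells have left the cell cycle, hold CDK inhibitors such as CDKN1A and CDKN2A at high levels, and secrete cytokines, growth factors and proteases, together the senescence-associated secretory phenotype (SASP), which loads the ER and Golgi. Loss of ER folding capacity is read by sensors of the unfolded protein response (UPR), which act on chaperone genes and the transcription factors ATF4, XBP1 and DDIT3 (CHOP).

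Libraries held 16143716 to 23189950 counts, so that 3 counts, the floor used here for a gene not detected, stood for 0.121 to 0.187 CPM (counts scaled to library size), counting error alone considered. Levels are CPM scaled by TMM factors, and effects are log2 fold changes. The word interaction below is the log2 NMTi effect in senescent cells after subtraction of the effect in control cells, each over 6 inhibitor and 3 DMSO libraries, so that a higher interaction means a response that was more positive, or less negative, in senescent cells. Adjusted p values come from edgeR's quasi-likelihood test with Benjamini-Hochberg adjustment over all genes tested, 0.05 or less being called, and errors of interactions are standard errors. A value in brackets with both an error and an adjusted p is the interaction, not the effect in a single state. Since these are bulk samples, fewer cells of a type and less RNA per cell cannot be told apart. The study reports that NMTi selectively killed cells undergoing OIS, in assays of longer treatment. Effects in senescent cells are therefore those of the cells present at collection. Changes within cells and changes in which cells remained cannot be told apart here. All 10 fibroblast markers examined were tested. Their summed level was 24721 to 31359 CPM in control DMSO cells and 30492 to 36177 CPM in control cells with NMTi. It was 16552 to 16949 CPM in senescent DMSO cells and 11437 to 12219 CPM in senescent cells with NMTi. In senescent cells NMTi lowered 7 of the 10 and raised 2, and in control cells it lowered 4 and raised 2. The epithelial genes CDH1, KRT5 and SFTPC and the immune genes PTPRC, CD3E and LYZ were too low to test. The summed level of the 3 epithelial markers that were tested (EPCAM, CLDN4 and KRT19) was 29.8 to 41.3 CPM in control DMSO cells, 7.08 to 8.38 CPM in control cells with NMTi and 10.7 to 16.2 CPM in senescent cells. That of 2 tested immune markers (CD68 and CSF1R) was 14.9 to 23.8 CPM in control and 91.1 to 165 CPM in senescent libraries. The sum of 5 endothelial markers was 31.9 to 55.4 CPM in control cells, 35.6 to 44.7 CPM in senescent DMSO cells and 14 to 25.3 CPM in senescent cells with NMTi. Their part in the results was not tested.

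One library stood apart from its group in a way that touches several results. Genes were put in 5 bins of equal size by transcript length. In control DMSO replicate 3 the bin of the shortest genes was higher than that of the longest by 0.538 (difference of the medians of log2 CPM minus the mean over libraries), against -0.395 and -0.0923 in the other 2 control DMSO libraries. This measure was -0.506 to -0.266 in control cells with NMTi, 0.0223 to 0.207 in senescent DMSO cells and 0.122 to 0.469 in senescent cells with NMTi. Genes with a mean under 1 CPM were left out of the bins. The interaction moved with gene length too: its median was 0.316 in the shortest bin (median length 1683 bases, 2469 genes) and -0.356 in the longest (8192 bases, 2468 genes). Calls in the shortest bin were 35.3% higher and 5.02% lower, and in the longest 7.86% higher and 40.8% lower. The part of length in the results was not tested. Beside several lists, values are therefore also given without that library and after a correction for length and GC content, which was chosen after the data were seen. Over all genes the interaction was called higher in 1952 and lower in 2326 without that library. With the correction it was 2394 and 2660, against 2538 and 2760 in the reported fit. Part of a drop in a list's counts can thus be the drop over all genes.

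**Figure D1:**
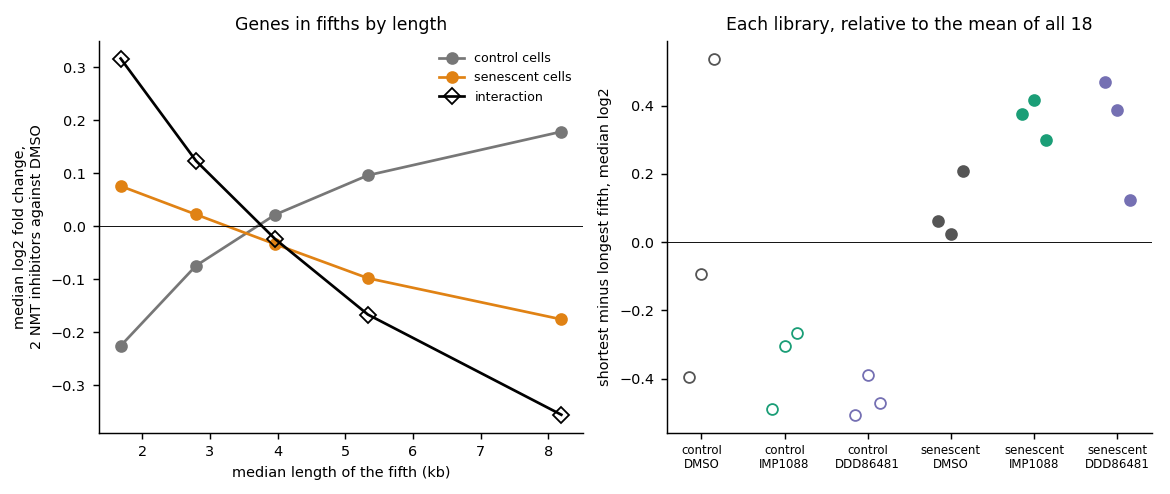
Gene length and the NMTi effect. Left, the median log2 effect of the 2 inhibitors in control cells (grey), in senescent cells (orange) and their difference, the interaction (open diamonds), in 5 bins of genes by length in kb. The interaction runs from 0.316 to -0.356. Right, the shortest bin minus the longest in each library (points) of the 6 groups, where control DMSO replicate 3 at 0.538 lies apart from its group.

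The interaction was called in 5298 genes (36.9% of those tested), of which 2538 (17.7%) were higher and 2760 (19.2%) lower in senescent cells, and 645 and 810 of these differed by over 2-fold. With NMTi 3259 genes rose in senescent cells (22.7%) and 3877 fell (27.0%), and in control cells 2932 rose (20.4%) and 3173 fell (22.1%). Across the 14341 genes the effects in the 2 states, which share no library, had a Pearson r of 0.334 and a Spearman coefficient of 0.306, and 59.8% of genes had the same sign. Among 9374 genes with a mean of at least 10 CPM, r was 0.393. Genes are not independent replicates, so these values are descriptions. The median absolute log2 effect was 0.359 in senescent and 0.295 in control cells.

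The called genes fell into 6 patterns by which state responded. In 2302 genes (43.5% of those called) NMTi had a called effect in senescent cells alone, 935 higher and 1367 lower, and in 1411 (26.6%) in control cells alone. In 520 genes both states responded in the same direction and the senescent response was larger, and in 187 the control response was larger. Neither single effect was called in 245 genes. The remaining 633 genes (11.9%) changed in opposite directions: 253 rose in senescent cells and fell in control cells, with median effects of 0.535 and -0.503, and 380 did the reverse, with medians of -0.609 and 0.494. Both opposite effects were over 2-fold in 48 of them and over 1.5-fold in 177. The number of opposite genes rested on the control DMSO libraries: it was 1159 without replicate 1, 529 without replicate 2 and 427 without replicate 3 of that group. In 137 called genes, 1 whole group lay at or under the floor, where the fitted fold change depends on the prior count, and 219 called genes had an interaction of the other sign on the CPM scale, none of them among the opposite genes.

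**Figure D2:**
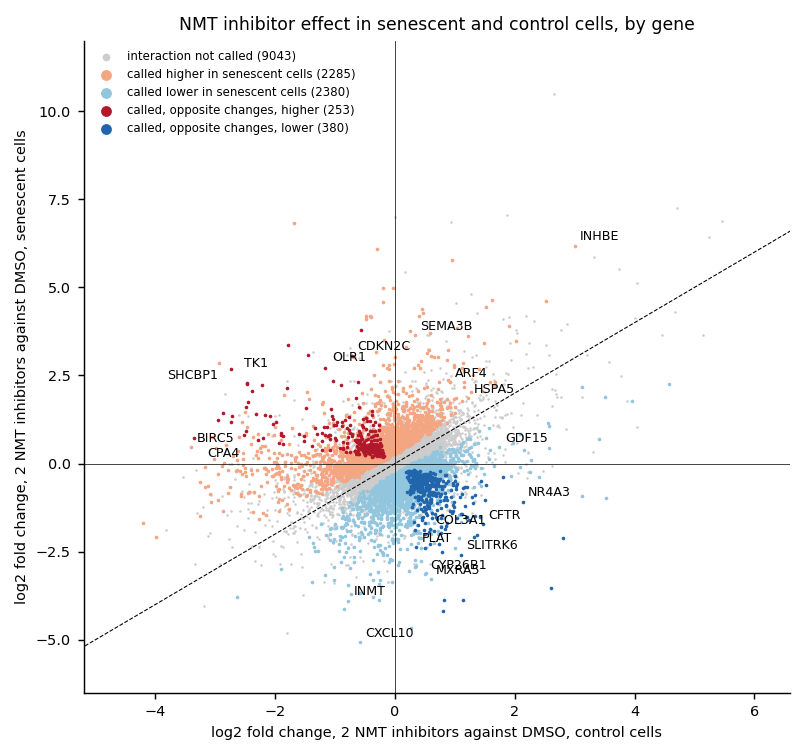
NMTi effect in control cells (horizontal axis) against that in senescent cells (vertical axis), both log2 fold changes of the 2 inhibitors against DMSO, with 1 point a gene and the dashed line at equal effects. Genes called by the interaction are coloured, and the 253 and 380 genes with opposite changes (dark red and dark blue) lie in the upper left and lower right quadrants.

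Of the 5298 called genes, 3702 were also called with IMP1088 alone and 4214 with DDD86481 alone, and 3217 with both. These estimates share the DMSO libraries with each other and with the mean, so nothing is read from their overlap. The difference between the 2 inhibitors' interactions was called in 0 genes by edgeR, with 253 genes at an unadjusted p under 0.05, and likewise in 0 genes by DESeq2 (242 unadjusted) and limma-voom (238 unadjusted). Its median absolute size was 0.12 log2 and its median standard error 0.208. The doses differed (300 nM and 1.5 µM), and the missing calls do not show that the compounds act alike.

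The largest group behaviour was in the cell cycle. Of 43 genes for DNA replication and nucleotide synthesis, 34 (79.1%) were called higher in the interaction and 0 lower, and of 50 mitosis genes 39 were higher and 1 lower, against 17.7% and 19.2% of all genes. In control cells, which cycle, NMTi lowered 33 of the replication genes and raised 0, and lowered 48 of the mitosis genes and raised 0, with median effects of -0.583 and -2.45. In senescent cells the same treatment raised 20 replication genes and lowered 5 (median 0.352), and raised 11 mitosis genes and lowered 9 (median -0.223). Thus 14 replication and 11 mitosis genes changed in opposite directions, and 11 and 23 changed in control cells alone. Some cell-cycle genes had little room to fall in senescent cells. Senescent DMSO means were 0.161 CPM for MKI67, 0.204 for KIF2C and 0.412 for BIRC5, against 2.67 for PRC1 and 5.01 for RRM2. How far such low levels shaped the counts and medians of these lists was not tested. The median interaction was 1.01 for replication and 2.01 for mitosis, and with the length and GC correction it was 0.837 and 1.93, with 35 and 39 called higher. Without control DMSO replicate 3 it was 0.868 and 1.94.

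Promoters of the listed genes were searched for short motifs as background. The lists were drawn up by pathway, so a motif's share in its own list says nothing about the response to NMTi. RefSeq promoters of GRCh38.p14, from 250 bases before to 50 after the gene start, matched 7891 of the 14341 genes tested, and 8 motifs were searched on both strands. Genes listed with more than a single promoter were left out, so the shares below hold for the matched genes only. The E2F motif (TTTCCCGC or TTTGGCGC) was found in 14 of 28 replication promoters and 3.76% of all, and the CHR motif of late cell-cycle genes (TTTGAA) in 26 of 36 mitosis promoters (72.2%) and 9.48% of all. The ER stress element ERSE (CCAAT and CCACG with 9 bases of any kind between) was in 5 of 24 promoters of ER chaperones (20.8%) and 0.152% of all. The interferon response motif ISRE (GAAA and GAAA with 2 bases between) was in 15 of 23 promoters of interferon-stimulated genes (65.2%) and 2.84% of all. The CARE motif bound by ATF4 and C/EBP proteins (TGATGNAA) stood in 4 of 20 promoters of ATF4 and CHOP targets and 1.56% of all, and an NF-kappaB motif (GGG and TTTCC with 2 bases between) in 46.7% of those of SASP interleukins and chemokines against 2.32%. An AP-1 motif (TGANTCA) was in 4.73% and a sterol response motif (TCACNCCAC) in 1.04% of all promoters. Matches of different motifs can overlap, and a match is not a site of binding. Over all genes the shares differed less. The E2F motif was in 5.35% of promoters of genes called higher and 2.62% of those called lower, and CHR in 11.2% and 7.87%. The promoters of 6 genes follow, 5′ to 3′ up to the last base before the start, with the motif in capitals; MCM6, CDT1 and CDC20 were chosen for display after their values were seen. The positions are MCM6 at chr2:135876444-135876693 (minus strand), CDT1 at chr16:88803539-88803788 (plus strand), PRC1 at chr15:90994536-90994785 (minus strand), CDC20 at chr1:43358731-43358980 (plus strand), HSPA5 at chr9:125241344-125241593 (minus strand) and CXCL10 at chr4:76023498-76023747 (minus strand).
MCM6: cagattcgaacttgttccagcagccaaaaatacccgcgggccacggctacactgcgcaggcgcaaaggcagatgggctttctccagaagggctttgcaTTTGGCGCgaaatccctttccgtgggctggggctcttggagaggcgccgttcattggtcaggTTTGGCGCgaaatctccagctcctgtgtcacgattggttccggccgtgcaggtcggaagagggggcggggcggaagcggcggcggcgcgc
CDT1: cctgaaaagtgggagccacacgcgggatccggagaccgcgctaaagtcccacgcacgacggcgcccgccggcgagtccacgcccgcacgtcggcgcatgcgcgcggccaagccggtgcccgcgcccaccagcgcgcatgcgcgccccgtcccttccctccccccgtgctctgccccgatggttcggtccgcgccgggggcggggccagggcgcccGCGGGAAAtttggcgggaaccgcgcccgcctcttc
PRC1: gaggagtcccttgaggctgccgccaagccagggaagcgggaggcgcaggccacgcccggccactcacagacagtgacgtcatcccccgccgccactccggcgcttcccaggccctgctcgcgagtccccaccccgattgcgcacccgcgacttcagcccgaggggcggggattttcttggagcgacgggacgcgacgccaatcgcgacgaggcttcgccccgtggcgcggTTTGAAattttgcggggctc
CDC20: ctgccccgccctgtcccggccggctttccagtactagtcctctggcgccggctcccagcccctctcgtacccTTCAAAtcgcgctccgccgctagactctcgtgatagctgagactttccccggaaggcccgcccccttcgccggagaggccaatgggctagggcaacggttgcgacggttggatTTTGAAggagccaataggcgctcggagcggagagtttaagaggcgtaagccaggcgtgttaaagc
HSPA5: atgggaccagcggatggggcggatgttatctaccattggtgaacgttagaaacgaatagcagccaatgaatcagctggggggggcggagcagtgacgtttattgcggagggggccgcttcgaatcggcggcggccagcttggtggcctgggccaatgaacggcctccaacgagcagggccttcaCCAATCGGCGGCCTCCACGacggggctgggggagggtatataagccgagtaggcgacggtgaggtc
CXCL10: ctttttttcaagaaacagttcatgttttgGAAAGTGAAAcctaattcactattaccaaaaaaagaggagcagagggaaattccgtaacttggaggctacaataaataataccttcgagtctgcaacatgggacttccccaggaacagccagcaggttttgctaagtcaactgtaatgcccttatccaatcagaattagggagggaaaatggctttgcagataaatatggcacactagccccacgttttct

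MCM6, a subunit of the replicative helicase with 2 E2F matches, averaged 61.3 ± 0.554 CPM (SD, n = 3) in control DMSO cells, 48.2 ± 3.48 with IMP1088 and 48.2 ± 2.33 with DDD86481, and 13.1 ± 0.218 with DMSO, 19.8 ± 0.905 with IMP1088 and 17.9 ± 0.911 with DDD86481 in the senescent groups, an interaction of 0.87 ± 0.11, adjusted p = 6.33e-06. CDT1, which licenses replication origins, had an interaction of 1.31 ± 0.21, adjusted p = 9.21e-05, with a rise of 1.06 in senescent cells. CDC20, an activator of the anaphase-promoting complex with 2 CHR matches, fell in control cells (-3.25) and its effect in senescent cells was -0.52 without a call, an interaction of 2.72 ± 0.35, adjusted p = 8.63e-06.

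TK1, the thymidine kinase of dividing cells, had the largest interaction of the genes named by rule (4.75 ± 0.36, adjusted p = 9.14e-09). In control cells it stood at 17.6, 17.5 and 23.9 CPM with DMSO, 3.36, 3.79 and 4.52 CPM with IMP1088 and 3.39, 3.08 and 3.27 CPM with DDD86481. In senescent cells it stood at 0.370, 0.187 and 0.440 CPM with DMSO, 1.63, 1.17 and 2.52 CPM with IMP1088 and 1.69, 1.25 and 1.78 CPM with DDD86481. All 6 NMTi libraries thus lay below DMSO in control cells and above DMSO in senescent cells, although every senescent library stayed below every control library and 1 senescent DMSO library was at the floor. PRC1, which bundles microtubules of the central spindle, had the smallest adjusted p of the mitosis list (2.96 ± 0.17, adjusted p = 6.43e-10). Its levels were 29.6, 27.6 and 28.6 CPM with DMSO, 5.42, 5.61 and 5.44 CPM with IMP1088 and 6.89, 6.33 and 5.42 CPM with DDD86481 in control cells. In senescent cells they were 2.47, 2.68 and 2.86 CPM with DMSO, 3.95, 4.64 and 4.09 CPM with IMP1088 and 3.60, 4.70 and 4.48 CPM with DDD86481. The same separation held, and PRC1 shares 57.6% of its exonic bases with another gene on the same strand and 34.3% with its antisense gene. RRM2, a subunit of ribonucleotide reductase, fell in control cells alone (interaction 2.87 ± 0.20, adjusted p = 3.95e-09). It stood there at 32.6, 33.5 and 36 CPM with DMSO, 4.06, 5.12 and 5.29 CPM with IMP1088 and 5.01, 4.71 and 3.97 CPM with DDD86481. The senescent groups, at 5.37, 4.11 and 5.55 CPM with DMSO, 5.79, 3.97 and 6.56 CPM with IMP1088 and 4.59, 4.65 and 4.97 CPM with DDD86481, overlapped.

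BIRC5 (survivin), which serves the chromosomal passenger complex, likewise fell in control cells from 21.2 ± 4.75 CPM to 1.96 ± 0.666 with IMP1088 and 2.03 ± 0.551 with DDD86481, while senescent means were between 0.412 and 0.733 CPM (3.87 ± 0.47, adjusted p = 4.86e-06). LMNB1, the lamin that is lost in senescence, fell from 27.2 ± 0.917 to 10.3 ± 0.572 with IMP1088 and 11.1 ± 2.51 CPM with DDD86481 in control cells. It rose from 2.08 ± 1.05 to 4.28 ± 0.935 with IMP1088 and 4.13 ± 1.85 CPM with DDD86481 in senescent cells (2.35 ± 0.35, adjusted p = 4.69e-05). MKI67, the usual proliferation marker, fell in control cells (-2.52) and was at or under the floor in every senescent library, so no interaction is given for it. CDC25B, a phosphatase that activates CDKs, was the exception among mitosis genes, with an interaction of -0.50 ± 0.13, adjusted p = 0.006.

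CDK inhibitors and nuclear genes linked to senescence were called higher in 9 of 29 (31.0%) and lower in 4 (13.8%), against 17.7% and 19.2% of all genes. They parted by member. CDKN2C (p18) rose in senescent cells, from 0.802, 0.809 and 0.714 CPM with DMSO to 6.95, 7.66 and 5.21 with IMP1088 and 6.93, 7.37 and 4.78 with DDD86481. It fell in control cells from 11.4, 12.6 and 16.5 to 8.08, 8.82 and 8.60 with IMP1088 and 6.99, 8.79 and 7.66 with DDD86481. Its interaction was 3.78 ± 0.27, adjusted p = 5.56e-09, and 20.4% of its exonic bases lie opposite another gene. CDKN2B (p15) fell in senescent cells, from 215, 246 and 218 CPM with DMSO to 103, 105 and 110.4 with IMP1088 and 113, 106 and 108 with DDD86481, while the control groups, from 23.8 to 38.2 CPM, overlapped (-1.27 ± 0.14, adjusted p = 1.91e-06). CDKN1A (p21) also fell in senescent cells alone, from 2126 ± 159 to 1319 ± 126 with IMP1088 and 1389 ± 117 CPM with DDD86481 (-0.51 ± 0.13, adjusted p = 0.00526). CDKN2A fell in both states (-0.54 and -0.62) with no call for the interaction (0.08 ± 0.17, adjusted p = 0.749), but with the length and GC correction it was called at -0.37, and 15.3% of its bases are opposite CDKN2B-AS1.

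Beyond the cell cycle, 5 further genes stood among the 10 with the highest interaction. ITGBL1, a secreted integrin-like protein, went from 39.7, 41 and 33.8 CPM in control DMSO cells to 7.53, 5.39 and 7.19 with IMP1088 and 4.91, 7.45 and 8.37 with DDD86481. In senescent cells it went from 5.43, 3.24 and 3.41 with DMSO to 12.5, 11.5 and 13.1 with IMP1088 and 15, 9.25 and 11.7 with DDD86481. Its interaction was 4.09 ± 0.26, adjusted p = 1.05e-09, although 70.5% of its exonic bases lie opposite FGF14. CPA4, a carboxypeptidase, followed the same course, from 38.7 ± 3.34 to 6.88 ± 1.31 with IMP1088 and 6.54 ± 1.00 CPM with DDD86481 in control cells and from 6.47 ± 0.653 to 11.6 ± 1.48 with IMP1088 and 10.9 ± 2.06 with DDD86481 in senescent cells. OLR1, a receptor for oxidized LDL, was at or near the floor in senescent DMSO cells (0.123, 0.124 and 0.220 CPM) and rose to 0.631, 1.17 and 1.18 with IMP1088 and 1.15, 1.62 and 0.613 with DDD86481, while it fell in control cells (-1.17). SEMA3B, a secreted semaphorin, and INHBE, an activin subunit and known target of the ER stress response, instead rose in both states and more so in senescent cells. SEMA3B moved from 2.77 ± 0.447 to 35.8 ± 3.32 with IMP1088 and 33.4 ± 6.32 CPM with DDD86481 there, by 3.64 against 0.33 in control cells. INHBE moved by 6.19 against 3.00, to 35.9 ± 4.77 with IMP1088 and 29 ± 6.94 CPM with DDD86481, and 16.4% of its bases overlap a gene on the other strand. Its senescent DMSO libraries stood at 0.0617, 0.809 and 0.440 CPM. The first was under the floor, where the size of the fitted rise depends on the prior count.

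The genes with the most negative interactions included immune, developmental and transporter genes. CXCL10, the interferon-induced chemokine, led them (-4.48 ± 0.37, adjusted p = 3.63e-08). It stood at 24.8, 33.8 and 30.3 CPM with DMSO, 0.368, 0.950 and 1.29 CPM with IMP1088 and 0.819, 0.993 and 0.859 CPM with DDD86481 in senescent cells, where all NMTi libraries lay below DMSO. In control cells it stood at 1.73, 1.89 and 2.69 CPM with DMSO, 1.1, 0.757 and 1.65 CPM with IMP1088 and 2.30, 0.952 and 1.64 CPM with DDD86481. There the IMP1088 libraries lay below DMSO and the DDD86481 libraries overlapped it. MXRA5, a matrix-remodelling protein, fell in senescent cells from 60.4, 70.3 and 49.6 CPM to 4.89, 6.76 and 7.12 with IMP1088 and 5.19, 4.91 and 8.09 with DDD86481 (-3.88 ± 0.38, adjusted p = 4.20e-07), with control DMSO libraries spread from 7.26 to 29.9 CPM. CYP26B1, which degrades retinoic acid, fell from 28 ± 1.75 to 3.04 ± 0.504 with IMP1088 and 3.26 ± 0.439 CPM with DDD86481. GJB2, a connexin, fell from 51.6 ± 5.59 to 12 ± 0.279 with IMP1088 and 9.61 ± 1.77 with DDD86481, while no control library was above 1.18 CPM for either gene. The control DMSO libraries of GJB2, at 0.202, 0.241 and 0.199 CPM, were near the floor. Its control effect of 0.66, which enters its interaction, was not called. INMT, a methyltransferase, fell in both states, with effects of -3.89 in senescent and -0.78 in control cells, and shares 11.1% of its bases with a read-through gene. NKD2, an inhibitor of Wnt signalling, had an interaction of -3.27 and PCDH18, a protocadherin, of -2.87, the latter falling from 56.6 ± 5.92 to 12.1 ± 2.55 with IMP1088 and 11 ± 2.59 CPM with DDD86481 in senescent cells while rising by 0.58 in control cells.

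Among genes that rose in control and fell in senescent cells, the 6 whose smaller effect was largest were SLITRK6, NR4A3, CFTR, EFCC1, DCC and LEF1. SLITRK6, a membrane protein of neurons, stood at 32, 23.9 and 22.9 CPM with DMSO, 64.2, 53.5 and 58.9 CPM with IMP1088 and 63.5, 48.2 and 51.1 CPM with DDD86481 in control cells. In senescent cells it stood at 7.22, 11.4 and 6.76 CPM with DMSO, 1.16, 2.29 and 0.953 CPM with IMP1088 and 0.546, 1.83 and 1.66 CPM with DDD86481. NR4A3, an immediate early nuclear receptor, stood at 1.05, 0.764 and 1.04 CPM with DMSO, 4.62, 3.34 and 4.18 CPM with IMP1088 and 5.01, 3.25 and 4.63 CPM with DDD86481 in control cells. In senescent cells it stood at 14.9, 17.7 and 12.6 CPM with DMSO, 5.89, 7.10 and 6.67 CPM with IMP1088 and 7.04, 6.11 and 10.1 CPM with DDD86481, so that the DMSO gap between the states narrowed from both sides. LEF1, a transcription factor of the Wnt pathway, moved likewise, from 4.78 ± 0.835 to 11.1 ± 1.94 with IMP1088 and 10.4 ± 0.666 CPM with DDD86481 in control cells and from 23.8 ± 3.84 to 11.2 ± 0.249 with IMP1088 and 9.37 ± 1.46 with DDD86481 in senescent cells. DCC, the netrin receptor, rose by 1.04 and fell by 1.54 on the log2 scale. CFTR, the chloride channel, rose by 1.47 and fell by 1.73, and EFCC1 rose by 1.21 and fell by 1.50. In all 6 genes the NMTi libraries lay above DMSO in control cells and below it in senescent cells with no overlap. Of their counterparts that fell in control and rose in senescent cells, TK1, SHCBP1, ITGBL1 and OLR1 showed no overlap either, whereas in KIF2C and SULF1 the DDD86481 libraries, but not those with IMP1088, overlapped with DMSO in senescent cells. The senescent DMSO libraries of SHCBP1, KIF2C and OLR1 were partly at or under the floor, where the size of the fitted rise depends on the prior count. The same limit holds for the fall of CFTR, whose senescent DDD86481 libraries stood at 0.273, 0.313 and 0 CPM. SHCBP1, a partner of the SHC adaptor, had the second highest interaction of the genes named by rule (4.74 ± 0.52, adjusted p = 1.65e-06), and SULF1, a heparan sulphate sulphatase, one of 3.15 ± 0.29, adjusted p = 1.62e-07. KIF2C, a kinesin that depolymerizes microtubules, had one of 4.19 ± 0.67, adjusted p = 1.05e-04.

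**Figure D3:**
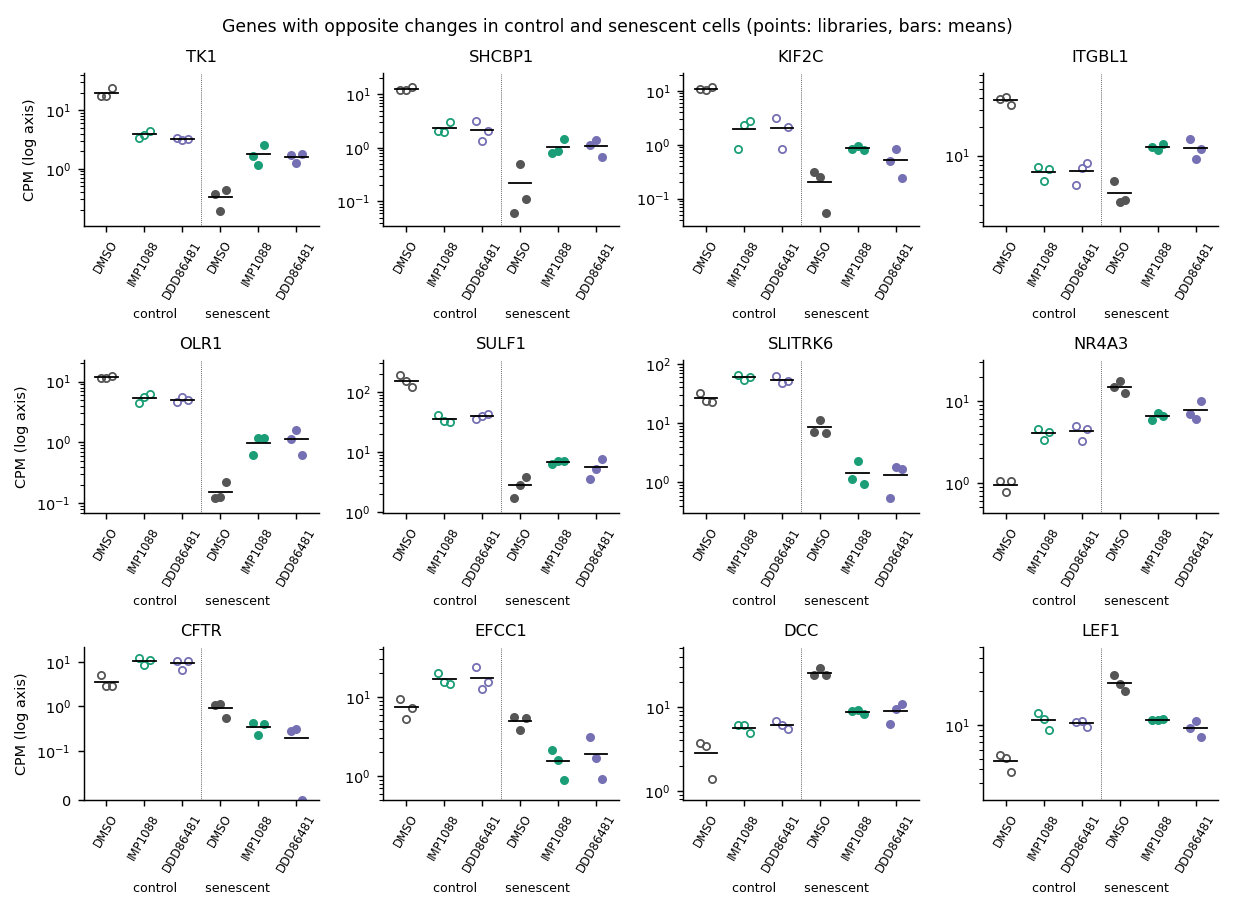
CPM (log axis; that of CFTR is linear under 0.1, to show 1 library at 0) of the 12 genes with the largest opposite changes, in control (open points) and senescent cells (filled points) given DMSO (grey), IMP1088 (green) or DDD86481 (purple), with 1 point a library and bars at the means. In TK1 to SULF1 the NMTi points move down in control cells and up in senescent cells, and in SLITRK6 to LEF1 the reverse.

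Among ER chaperones and COPI genes, more members were called higher than lower in the interaction. Of 30 ER chaperones and folding enzymes, NMTi raised 25 in senescent and 20 in control cells, and the interaction was higher in 10 (33.3%) and lower in 1 (3.33%), with a median of 0.26. With the length and GC correction 9 were higher with a median of 0.115. HSPA5 (BiP), the main ER chaperone, stood at 780.4, 860.1 and 825 CPM with DMSO, 1872, 1716 and 2137 CPM with IMP1088 and 2525, 1403 and 1869 CPM with DDD86481 in control cells. Its senescent levels were 1256, 1165 and 1091 CPM with DMSO, 4822, 4577 and 4544 CPM with IMP1088 and 4189, 3697 and 3638 CPM with DDD86481. NMTi libraries lay above DMSO in both states, and the rise was 1.85 in senescent and 1.22 in control cells (0.63 ± 0.18, adjusted p = 0.0093). The interaction of HSPA5 was 0.77 with IMP1088 (adjusted p = 0.00887) and 0.48 with DDD86481 (adjusted p = 0.0784). P4HB, a protein disulphide isomerase, rose by 1.25 and 0.50 (0.75 ± 0.12, adjusted p = 1.42e-04), HSP90B1 by 0.96 and 0.38 (0.59 ± 0.14, adjusted p = 0.00353). HYOU1, another chaperone, rose less in senescent cells (by 0.70 against 1.26, -0.56 ± 0.20, adjusted p = 0.0352), a call that was lost in 11 of 18 fits that left out 1 library and with the length and GC correction (-0.34, adjusted p = 0.134). DNAJB9 rose by 1.84 and 1.47 with no call for the difference (0.37 ± 0.19, adjusted p = 0.133).

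Of 30 genes of ER-associated degradation, 9 were called higher and 2 lower, and without control DMSO replicate 3 it was 5 and 2. ERLEC1, a lectin that delivers misfolded glycoproteins, rose from 163 ± 8.51 to 351 ± 6.82 with IMP1088 and 341 ± 11.9 CPM with DDD86481 in senescent cells and from 138 ± 16.5 to 171 ± 9.84 with IMP1088 and 170.5 ± 17.9 with DDD86481 in control cells (0.77 ± 0.12, adjusted p = 4.80e-05). HERPUD1, induced by ER stress, rose by 2.20 and 1.65 (0.55 ± 0.17, adjusted p = 0.015). Its interaction was 0.73 with IMP1088 (adjusted p = 0.00867) and 0.36 with DDD86481 (adjusted p = 0.158). EDEM1, which extracts glycoproteins for degradation, rose less on the log2 scale in senescent cells (0.41 against 0.96, -0.55 ± 0.13, adjusted p = 0.0024). Its CPM interaction was of the other sign, at 18.1 ± 15.8 (SE).

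UPR sensors and factors were near the shares of all genes, with 4 of 22 (18.2%) higher and 4 lower. ATF4 stood at 146, 208 and 179 CPM with DMSO, 463, 468 and 431 CPM with IMP1088 and 460.1, 437 and 419.5 CPM with DDD86481 in senescent cells, with NMTi above DMSO throughout. In control cells it stood at 235, 267 and 348 CPM with DMSO, 334, 366 and 403 CPM with IMP1088 and 405, 323 and 331 CPM with DDD86481, where the rise was called (0.35) although the groups overlapped (0.98 ± 0.17, adjusted p = 1.74e-04). CREB3, a membrane-bound factor cleaved in the Golgi, rose by 1.36 and 0.46 (0.90 ± 0.14, adjusted p = 8.58e-05). XBP1 rose by 0.84 and 0.28 (0.56 ± 0.15, adjusted p = 0.00678), though with the length and GC correction it was not called (0.25, adjusted p = 0.123). ERN1 (IRE1), the sensor that splices XBP1 mRNA, rose in control cells alone, by 1.20 against 0.09 in senescent cells (-1.12 ± 0.20, adjusted p = 2.51e-04). DDIT3 rose in both, by 1.53 and 1.69, without a call for the difference (-0.16 ± 0.25, adjusted p = 0.645), and 27.2% of its bases lie opposite MARS1. The targets of ATF4 and CHOP were called higher in 5 of 38 (13.2%) and lower in 8 (21.1%), close to the shares of all genes, with a median of -0.0173, and without control DMSO replicate 3 the lower ones were 4. TRIB3, a pseudokinase, rose from 21.4, 28.2 and 23.2 to 85.8, 78.4 and 118 with IMP1088 and 123, 64.3 and 103 CPM with DDD86481 in control cells. It rose from 137, 165 and 143 to 213, 224 and 217 with IMP1088 and 252, 206 and 206 with DDD86481 in senescent cells, a smaller log2 rise from a higher start (-1.40 ± 0.22, adjusted p = 8.51e-05). GDF15, a stress cytokine, had the same form, rising by 1.74 in control and 0.47 in senescent cells (-1.27 ± 0.18, adjusted p = 2.21e-05). The CPM interaction of GDF15 was of the other sign, at 189 ± 80.5 (SE). NUPR1, a stress-induced chromatin protein, rose in senescent cells alone (1.40, 1.54 ± 0.19, adjusted p = 4.85e-06, 16.5% of bases shared with a gene on its strand), and ASNS, which stood at 0.199 to 1.35 CPM and shares 49.3% of its bases with a gene on its strand, was not called (0.10 ± 0.52, adjusted p = 0.899).

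Of 36 genes of the COPI coat and its regulators, 12 (33.3%) were called higher and 1 (2.78%) lower, median 0.244. With the length and GC correction 9 were higher, median 0.136, and without control DMSO replicate 3 it was 10, median 0.159. NMTi raised 25 of them in senescent and 18 in control cells. ARF4, a class II ARF GTPase, had the largest interaction of the list (1.39 ± 0.16, adjusted p = 1.96e-06). Senescent libraries held 402, 409.6 and 367 CPM with DMSO, 2121, 1981 and 2176 CPM with IMP1088 and 1569, 1979 and 1872 CPM with DDD86481. In control cells it stood at 355, 398 and 498 CPM with DMSO, 757, 755 and 909 CPM with IMP1088 and 883, 665 and 749.5 CPM with DDD86481. NMTi lay above DMSO in both states, and ARF4 overlaps its antisense gene over 18.5% of its bases. COPZ2, COPE and COPB1 of the coat had interactions of 1.03, 0.73 and 0.43, and the KDEL receptors KDELR3 and KDELR2, which retrieve ER proteins, of 0.79 and 0.36. ARF1 was not called in the interaction or in either state (-0.04 ± 0.10, adjusted p = 0.791). The interaction of COPB2 was not called either (0.09 ± 0.10, adjusted p = 0.541), though it was with the length and GC correction (0.44). COPB2 rose by 0.33 in senescent and 0.24 in control cells, and lies opposite MRPS22 over 34.1% of its bases. COPG2 was the lower member (-0.42 ± 0.13, adjusted p = 0.0169), with 13.2% of its bases opposite MEST and its call lost in 3 fits without 1 library.

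COPII coat genes, which act in export from the ER, were called higher in 2 of 20 and lower in 2, and Golgi matrix genes in 2 and 3 of 20, below the shares of all genes. NMTi raised 13 of the COPII genes in senescent and 12 in control cells, and 14 and 18 of the Golgi matrix genes, with 1 Golgi gene lowered, in senescent cells. TFG, an organizer of ER exit sites, rose in senescent cells alone (interaction 0.56 ± 0.11, adjusted p = 4.78e-04). SEC16A, a scaffold of those sites, rose in control cells alone (interaction -0.79 ± 0.20, adjusted p = 0.00536). With the length and GC correction SEC16A was not called (-0.28, adjusted p = 0.0533). TGOLN2 (TGN46) fell in senescent cells, with an effect of -0.38 there. Its interaction was -0.55 ± 0.12, adjusted p = 0.0018, and -0.27 with that correction. GOLPH3 rose more in senescent cells (0.35 ± 0.11, adjusted p = 0.0176), with 13.1% of its bases opposite another gene. Its call was lost in 2 fits without 1 library and with that correction (0.16, adjusted p = 0.164).

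NMT2, 1 of the 2 target enzymes, fell in control cells from 34.1, 38.9 and 45.8 CPM to 18.7, 23.2 and 19.4 with IMP1088 and 18.4, 22.7 and 16.5 with DDD86481. It fell in senescent cells from 16.3, 18.1 and 16.4 to 13.8, 14.8 and 14.8 with IMP1088 and 11.8, 15 and 11.7 with DDD86481 (0.69 ± 0.17, adjusted p = 0.00379). NMT1 was not called (-0.06 ± 0.10, adjusted p = 0.686), though it was with the length and GC correction, at 0.34 (adjusted p = 0.0267). Of 36 genes for NMTs and myristoylated proteins, 5 were called higher and 12 (33.3%) lower, and 2 and 10 without control DMSO replicate 3. FYN, a Src-family kinase, fell in senescent cells alone, from 72.8 ± 5.04 to 36.3 ± 1.34 with IMP1088 and 33 ± 0.813 CPM with DDD86481 (-1.1 ± 0.13, adjusted p = 3.03e-06), and the formins FMNL1, FMNL2 and FMNL3 were lower too, at -1.09, -0.74 and -1.07. ARL1, a Golgi GTPase, rose in both states and more in senescent cells (0.60 ± 0.12, adjusted p = 5.89e-04).

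SASP interleukins and chemokines were seldom called: 2 of 25 were higher and 4 lower, and NMTi raised 6 and lowered 7 of them in senescent cells. The list's median of -0.256 took either sign without 1 library, from -0.423 without control DMSO replicate 3 to 0.0745 without replicate 1. Without replicate 3 the lower members were 8 and the higher 1. IL6 was 12.3, 22.6 and 35.1 CPM with DMSO, 6.42, 10.2 and 15.7 CPM with IMP1088 and 10.8, 7.90 and 11.9 CPM with DDD86481 in control cells. In senescent cells IL6 was 144, 191 and 170.5 CPM with DMSO, 182, 233 and 198 CPM with IMP1088 and 194, 285 and 245 CPM with DDD86481. In both states the IMP1088 libraries overlapped with DMSO, whereas those with DDD86481 lay below it in control cells and above it in senescent cells. The fall was called in control cells (-1.14), as was the interaction (1.54 ± 0.34, adjusted p = 0.0018). IL1B stood at 6639 ± 295 CPM in senescent DMSO cells and fell to 5316 ± 517 with IMP1088 and 5185 ± 49.8 with DDD86481. It rose from 1.48 ± 0.610 to 2.13 ± 0.280 with IMP1088 and 2.12 ± 0.0418 with DDD86481 in control cells (-0.88 ± 0.22, adjusted p = 0.00418). CXCL3 was lower at -1.46 ± 0.28, adjusted p = 6.18e-04, with a rise in control cells alone from a level of 1.16 CPM. CXCL8 and IL1A were not called, at -0.07 ± 0.36, adjusted p = 0.907 for CXCL8 and -0.89 ± 0.49, adjusted p = 0.161 for IL1A, though IL1A was with the length and GC correction (-1.24). CSF3 rose in senescent cells, from 268 ± 27.1 to 642 ± 14.2 with IMP1088 and 688 ± 12.5 CPM with DDD86481, and was at or under the floor in all control libraries, so no interaction is given for it.

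SASP growth factors and their binding proteins were lower in 15 of 34 (44.1%) and higher in 8 (23.5%), with a median of -0.481. BMP4, a bone morphogenetic protein, had the smallest adjusted p of the lower members (-2.40 ± 0.18, adjusted p = 9.18e-09). Senescent cells gave 14, 11.6 and 13.6 CPM with DMSO, 1.74, 2.18 and 1.06 CPM with IMP1088 and 3.11, 2.98 and 2.21 CPM with DDD86481, with NMTi below DMSO. Control cells gave 215, 178 and 202 CPM with DMSO, 192, 163 and 159 CPM with IMP1088 and 191, 169 and 168 CPM with DDD86481, and the groups overlapped. On the CPM scale the interaction of BMP4 was of the other sign, at 14.1 ± 12.8 (SE). A gene on the other strand covers 16.3% of its bases. The EGF-family ligands AREG, EREG and NRG1 rose in control cells and fell in senescent cells, with interactions of -1.79, -0.87 and -1.62, and VEGFA, the vascular growth factor, likewise at -0.86. IGFBP6 was the reverse, from 183 ± 49.6 to 79.7 ± 5.65 with IMP1088 and 77.2 ± 2.47 CPM with DDD86481 in control cells, with a rise of 0.38 on the log2 scale in senescent cells (1.60 ± 0.16, adjusted p = 5.87e-07). Matrix proteases and their inhibitors split, with 10 of 28 (35.7%) higher and 7 (25.0%) lower, against 17.7% and 19.2% of all genes. PLAT, the tissue plasminogen activator, fell from 3470.0, 3423 and 2970.0 CPM to 609, 803 and 566 with IMP1088 and 637, 687 and 524 with DDD86481 in senescent cells. It rose from 1485, 1415 and 1266 to 1689, 1847 and 1655 with IMP1088 and 2021, 1784 and 1610.0 with DDD86481 in control cells (-2.71 ± 0.16, adjusted p = 7.47e-10). SERPINB7, a serpin, fell in control cells alone, from 5.91 ± 0.197 to 0.726 ± 0.283 with IMP1088 and 0.734 ± 0.252 CPM with DDD86481 (3.15 ± 0.20, adjusted p = 8.86e-10), and so did MMP1, the interstitial collagenase (0.93 ± 0.15, adjusted p = 1.07e-04).

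Interferon-stimulated genes were close to the background, with 5 of 38 (13.2%) higher and 7 (18.4%) lower, CXCL10 included, and 3 and 7 without control DMSO replicate 3. GBP1, XAF1 and TRIM22 were among the lower, at -1.15, -1.06 and -0.95. IRF7, a factor that induces interferons, was higher (0.96 ± 0.20, adjusted p = 0.00111), rising by 1.47 in senescent and 0.51 in control cells. NF-kappaB subunits and inhibitors were higher in 4 of 25 and lower in 5, near the background as well. TNFAIP3 (A20), a feedback inhibitor, rose in control cells alone (-1.06 ± 0.21, adjusted p = 7.21e-04), and NFKBIB in senescent cells alone (0.59 ± 0.19, adjusted p = 0.0198), a call lost in 3 fits without 1 library.

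Matrix genes formed a group of lower interactions. Of 36 collagens and elastic fibre genes, 20 (55.6%) were lower and 2 (5.56%) higher, with a median of -0.931. NMTi lowered 25 of them in senescent cells and raised 1, against 7 lowered and 10 raised in control cells. With the length and GC correction 15 were lower and the median was -0.527, and without control DMSO replicate 3 it was 19 and -0.654. COL3A1 stood at 4210.0, 3883 and 3011 CPM with DMSO, 5515, 5386 and 5529 CPM with IMP1088 and 6848, 4902 and 5153 CPM with DDD86481 in control cells. Senescent cells gave 291, 346 and 250.5 CPM with DMSO, 63.2, 84.2 and 64.1 CPM with IMP1088 and 106, 94.5 and 79.2 CPM with DDD86481. NMTi and DMSO did not overlap in either state (-2.45 ± 0.19, adjusted p = 1.83e-08). COL1A1 stood at 3338, 3390.0 and 2895 CPM with DMSO, 750.4, 899 and 844 CPM with IMP1088 and 1494, 965 and 924 CPM with DDD86481 in senescent cells, NMTi below DMSO. In control cells it stood at 8993, 8259 and 5549 CPM with DMSO, 9606, 8219 and 8166 CPM with IMP1088 and 10650.0, 7757 and 8958 CPM with DDD86481, with overlap (-1.95 ± 0.22, adjusted p = 1.91e-06). Its partner chain COL1A2 went the other way (0.62 ± 0.17, adjusted p = 0.00801), though its interaction on the CPM scale was negative (-2129 ± 919, SE). It rose in senescent cells from 681, 796 and 647 CPM to 1265, 1454 and 1436 with IMP1088 and 2004, 1489 and 1564 with DDD86481, a log2 rise of 1.11 against 0.49 in control cells. COL6A3, COL5A1 and FBN1 (fibrillin) were lower at -1.71, -1.53 and -1.14.

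**Figure D4:**
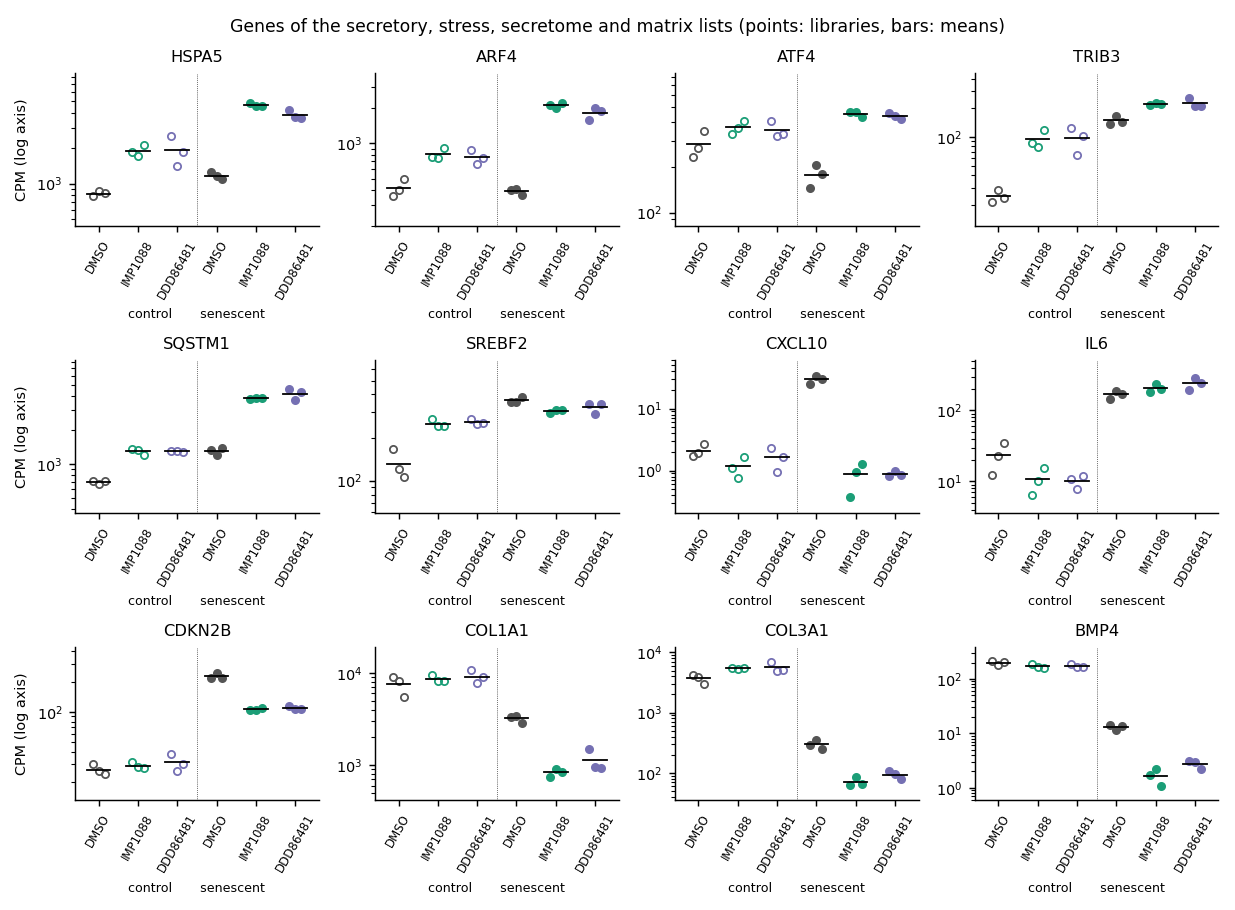
CPM (log axis) of 12 genes from the ER, COPI, stress, sterol, SASP, CDK inhibitor and matrix lists, with points and bars as in the plot of opposite genes. HSPA5, ARF4 and SQSTM1 rise in both states and more in senescent cells, while COL1A1, COL3A1 and BMP4 fall in senescent cells, where NMTi and DMSO points do not overlap.

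Several signalling lists also had more lower than higher calls, where all genes had 17.7% higher and 19.2% lower. YAP and TAZ targets were lower in 14 of 25 and higher in 3, with NMTi lowering 23 in senescent and 13 in control cells. DLC1, a GTPase-activating protein, fell from 82.4 ± 10.3 to 40.3 ± 0.933 with IMP1088 and 42.2 ± 4.87 CPM with DDD86481 in senescent cells alone (-1.20 ± 0.15, adjusted p = 5.68e-06), and the factors TEAD1, YAP1 and WWTR1 (TAZ) were lower at -0.97, -0.64 and -0.61. NT5E (CD73) was higher (1.28 ± 0.12, adjusted p = 3.42e-07), falling more on the log2 scale in control cells. Its CPM interaction was of the other sign, at -365 ± 76.5 (SE). TGF-beta pathway genes were lower in 10 of 25 and higher in 2 (in 11 and 6 with the length and GC correction). TGFBI, a matrix protein, was lower (-0.66 ± 0.11, adjusted p = 1.05e-04) and the pseudoreceptor BAMBI higher (1.1 ± 0.20, adjusted p = 2.54e-04). RAS genes and ERK feedback genes were lower in 13 of 25 and higher in 1. DUSP4, an ERK phosphatase, fell from 129, 129.6 and 135 CPM to 59, 59.6 and 50.7 with IMP1088 and 60.1, 53.4 and 47.4 with DDD86481 in senescent cells, while control libraries stayed between 4.68 and 6.52 CPM (-1.40 ± 0.15, adjusted p = 1.39e-06). The feedback inhibitors SPRY1, SPRY4, SPRED1 and SPRED2 were lower at -1.71, -1.24, -1.28 and -1.43, and DUSP1 was the higher member (0.92 ± 0.20, adjusted p = 0.00147). HRAS was 3119 ± 114 CPM in control and 5630.0 ± 388 CPM in senescent DMSO cells, and rose with NMTi in control cells alone (-0.38 ± 0.11, adjusted p = 0.0126). Whether reads of the fusion were counted under it is not given in the sources used here. AP-1 and immediate early genes were higher in 5 of 25 and lower in 9. FOSB rose in both states, by 1.77 in senescent and 3.96 in control cells (-2.19 ± 0.56, adjusted p = 0.00531). On the CPM scale the interaction of FOSB was of the other sign, at 8.66 ± 3.26 (SE). The factors EGR1, EGR2 and EGR3 were lower at -1.72, -1.84 and -1.48. KLF6 was higher with a fall in control cells alone (0.82 ± 0.12, adjusted p = 4.79e-05).

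Sterol and fatty acid genes were lower in 14 of 35 and higher in 4, although NMTi raised 17 of them in senescent and 24 in control cells. SREBF2, the master factor of cholesterol synthesis, stood at 166, 121 and 107 CPM with DMSO, 269, 239 and 242 CPM with IMP1088 and 271, 249 and 253 CPM with DDD86481 in control cells, where it rose. Senescent libraries held 355, 352 and 386 CPM with DMSO, 295, 311 and 309.7 CPM with IMP1088 and 341, 294 and 340.2 CPM with DDD86481, with NMTi below DMSO in every library. The effect there, -0.21, was not called, and the interaction was -1.16 ± 0.14, adjusted p = 6.59e-06. SQLE, one of its targets, rose in control cells by 1.09 and had an interaction of -0.66. PMVK, the phosphomevalonate kinase of the same pathway, was higher (1.19 ± 0.24, adjusted p = 7.94e-04). Lysosome genes were higher in 8 of 49 (16.3%) and lower in 13 (26.5%), against 17.7% and 19.2% of all genes. CTSL, a cathepsin, rose in senescent cells alone (interaction 0.98 ± 0.12, adjusted p = 6.41e-06). ATP6V0A1, a proton pump subunit, rose in control and fell in senescent cells (-0.78 ± 0.14, adjusted p = 2.10e-04), though with the length and GC correction the interaction was -0.30 (adjusted p = 0.0373). Autophagy genes were higher in 7 of 33 (21.2%) and lower in 5, near the background. Without control DMSO replicate 3, where fewer of all genes were called, it was 3 and 5. SQSTM1 (p62), the autophagy receptor, rose from 712, 664 and 708 CPM to 1365, 1321 and 1214 with IMP1088 and 1305, 1298 and 1289 with DDD86481 in control cells. In senescent cells it rose from 1341, 1194 and 1394 to 3768, 3786 and 3803 with IMP1088 and 4584, 3663 and 4294 with DDD86481 (0.70 ± 0.11, adjusted p = 1.09e-04), with 21.0% of its bases opposite MRNIP. UVRAG was lower (-0.64 ± 0.12, adjusted p = 5.89e-04).

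Of 27 p53 targets, 12 (44.4%) were lower and 2 higher, with NMTi lowering 16 and raising 0 in senescent cells. XPC, a DNA repair factor, fell from 67.4 ± 2.40 to 47.5 ± 6.02 with IMP1088 and 46.5 ± 5.54 CPM with DDD86481 in senescent cells and rose by 0.25 in control cells (-0.77 ± 0.13, adjusted p = 2.19e-04), with 24.6% of its bases opposite an antisense gene. GADD45A, a stress sensor, was higher with a fall in control cells alone (0.98 ± 0.22, adjusted p = 0.00223), where DMSO libraries ran from 46.9 to 89.6 CPM. BCL2 family genes were higher in 4 of 17 (23.5%) and lower in 6 (35.3%), against 17.7% and 19.2% of all genes. Without control DMSO replicate 3 it was 2 and 4. MCL1, which holds apoptosis in check, fell in senescent cells alone, from 1353, 1191 and 1178 CPM to 808, 692 and 735 with IMP1088 and 985, 777 and 724 with DDD86481 (-0.76 ± 0.13, adjusted p = 1.63e-04). BCL2L2 (BCL-w) fell in control cells alone (0.39 ± 0.10, adjusted p = 0.00524), and 16.8% of its bases are shared with a read-through gene.

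In 3 lists of housekeeping genes the interaction was mostly higher, and their counts changed with the length and GC correction and without 1 library. Of 78 cytosolic ribosomal protein genes 46 were higher and 0 lower (median 0.52), and of 34 proteasome subunits 20 (58.8%) and 0 (median 0.368). Of 38 genes listed by name under mitochondrial complex I, 26 (68.4%) were higher and 0 lower (median 0.58). After the length and GC correction 21, 9 and 14 were higher, with 1 lower in each list, and the medians were 0.196, 0.142 and 0.268. Without control DMSO replicate 3, 20, 8 and 14 were higher, with medians of 0.234, 0.224 and 0.307. RPL10 rose in senescent cells alone (0.69 ± 0.14, adjusted p = 6.91e-04), and 35.9% of its bases lie opposite DNASE1L1. PSMD14, a deubiquitinase of the proteasome lid, fell in control cells alone (0.54 ± 0.12, adjusted p = 0.00125). NDUFA4, which was placed in the complex I list by its name, rose in senescent and fell in control cells (0.89 ± 0.15, adjusted p = 1.23e-04). NRF2 targets were higher in 11 of 29 (37.9%) and lower in 4, but in 3 and 7 after the length and GC correction and 7 and 4 without that library. AKR1C2, an aldo-keto reductase, was higher (1.64 ± 0.31, adjusted p = 4.74e-04) and ABCC1, an exporter of glutathione conjugates, lower (-0.70 ± 0.18, adjusted p = 0.00494, and -0.32 with the correction). Among the other named genes whose interaction was called with and without the correction, it brought closer to 0 ERN1 to -0.63, CREB3 to 0.58, PMVK to 0.71, GADD45A to 0.56, NDUFA4 to 0.53, PSMD14 to 0.35, ARL1 to 0.38, EDEM1 to -0.33 and MMP1 to 0.62. P4HB was higher with it, at 1.28, and HRAS and COPG2 were further below 0 with it, at -0.60 and -0.73.

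**Figure D5:**
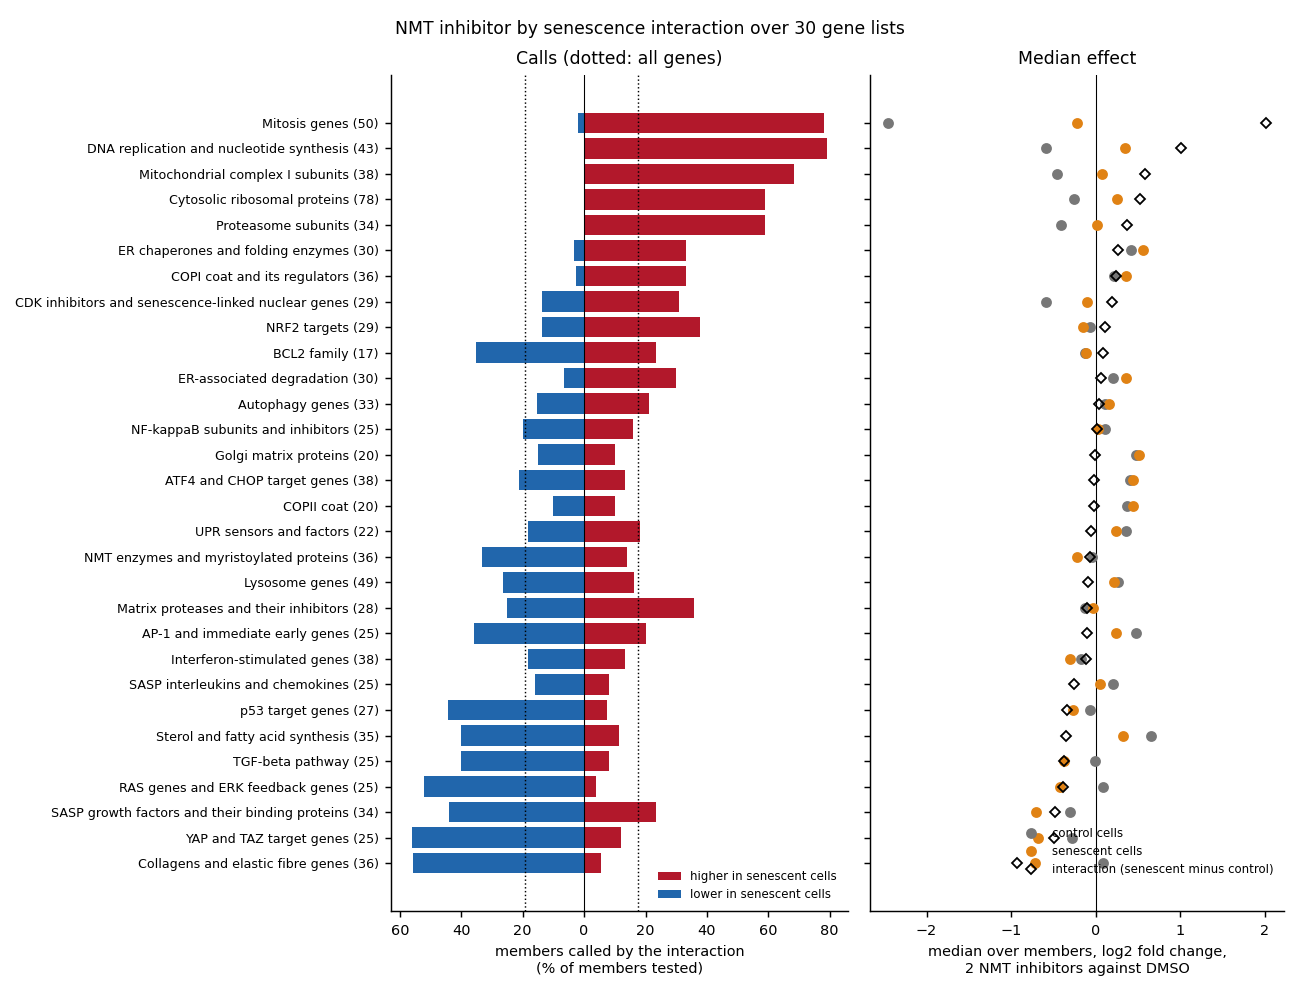
The 30 gene lists, with the number of members tested in brackets. Left, the percentage of members called higher (red) or lower (blue) by the interaction, with dotted lines at the 17.7% and 19.2% of all genes. Right, the median log2 effect in control cells (grey), senescent cells (orange) and the interaction (diamonds), which runs from -0.931 for collagens to 2.01 for mitosis genes.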

How the data were processed

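RNA-seq libraries of poly(A) RNA were summarised by the authors as read counts per gene, and the deposited table of whole-number counts, not normalized, was used for all 18 samples. The submitters' processing notes name hg38, DRAGEN, STAR 2.7.8a and DESeq2 1.32.0, whereas the study's methods describe alignment to an older build with TopHat. Which of them made the table, and its annotation and counting strand, are not given in the sources used here, so reads of overlapping genes may be shared. The table's columns name the second inhibitor PCLX001 where the labels give DDD86481.

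Genes were filtered with filterByExpr and scaled by TMM, and edgeR 4.0.16 (R 4.3.3) quasi-likelihood tests were fitted to 6 group means with Benjamini-Hochberg adjustment. Inhibitors were averaged within each state. No pair of replicates looked like copies of 1 library, since the lowest chi-square per gene was 5.26. Library totals are in the text above, and with no molecular identifiers mentioned, floors cover counting error only. Fitted fold changes use a prior count of 0.125. Alternatives were other scalings, DESeq2 1.42.0, limma 3.58.1 (voom), no filter, each inhibitor alone, a 1.5-fold threshold, a replicate block, each library left out and a length and GC correction.

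Genes were named by rule: the 10 highest and 10 lowest called interactions with the same sign for each inhibitor and without any library, at least 10 CPM in a group and a sample above the floor in each group, the 6 opposite genes per direction with the largest smaller effect, the called member of each list with the smallest adjusted p in each direction, and a fixed set of anchor genes. Other list members were named as examples after their values were seen. Members and lists were chosen with earlier results of these data known. Lists share some genes. Exonic overlaps of at least 10% were taken from GENCODE annotation and promoters from RefSeq.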

Additional observations from a re-analysis of the deposited data

Results flagged for a closer look

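The response to NMTi differed between senescent and control cells, by edgeR's test of the interaction, in each of the 12 genes with the largest opposite changes. The interactions were 4.75 for TK1, 4.74 for SHCBP1, 4.19 for KIF2C, 4.09 for ITGBL1, 3.87 for OLR1 and 3.15 for SULF1, which fell in control and rose in senescent cells. They were -3.69 for SLITRK6, -3.21 for NR4A3, -3.19 for CFTR, -2.71 for EFCC1, -2.58 for DCC and -2.38 for LEF1, which did the reverse. The 12 genes were picked, for the size of these changes, from genes already called by this test. Their calls were therefore fixed by the choice, and their values are a description.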

How the results depend on the processing

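The interaction was called in 5054 to 5587 genes under other scalings, DESeq2, limma-voom, no filter and the length and GC correction, in 3761 with IMP1088 alone and 4351 with DDD86481 alone, and in 4275 to 6424 without 1 library. Upper quartile scaling moved the split to 2913 higher and 2466 lower. Higher calls also outnumbered lower ones without control DMSO replicate 2 (2612 and 2279). The same held without any 1 control inhibitor library (2595 to 2782 higher, 2258 to 2435 lower). In the other fits without 1 library lower calls stayed in the majority. Against a 1.5-fold threshold 1019 genes were called (435 higher, 584 lower), with 1820 in senescent and 881 in control cells. With a replicate block the counts were 5492, 7275 and 6293, and 0 for the difference between inhibitors. The numbers were not taken as pairs, since every r exceeded 0.1 in only 3 of 15 group pairs. The opposite pattern ranged from 427 (without control DMSO replicate 3) to 1159 genes (without its replicate 1), and the cause was not tested. With the length and GC correction list medians past their replicate spread were 0.101 for autophagy, -0.527 for collagens and -0.369 for AP-1 genes. Those of ribosomal, proteasome, complex I, ER chaperone and COPI genes shrank by over 1.5 times, to 0.115 to 0.268, and matrix proteases (0.00548) and the BCL2 family (-0.0067) turned sign. Without 1 library the medians ran from -0.423 to 0.0745 for SASP interleukins, -0.533 to -0.348 for SASP growth factors, 1.94 to 2.17 for mitosis and 0.0339 to 0.108 for autophagy. Of the named genes' values over all settings, 2541 kept direction and call, 61 lost the call, 3 gained one and 21 turned sign. Those that turned were uncalled in the reported fit. ARF1 was 0.01 with upper quartile scaling and -0.08 to 0.03 without 1 library. With the length and GC correction ASNS was -0.12, CDKN2A -0.37 (called) and NMT1 0.34 (called). Without 1 library ASNS ran from -0.22 to 0.51, CDKN2A from -0.14 to 0.23, CXCL8 from -0.52 to 0.23, DDIT3 from -0.37 to 0.07 and NMT1 from -0.09 to 0.02. CSF3 (-2.92 to 0.10) and MKI67 (-0.34 to 0.90) have groups at the floor, where these values depend on the prior count.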

Other observations

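The log2 and CPM scales gave different signs of the interaction for 219 called genes. COL1A2, for example, had a log2 interaction of 0.62 and a CPM interaction of -2129 ± 919 (SE), because its level was about 708 CPM in senescent and 7319 CPM in control DMSO cells. The sign of such an interaction therefore depends on whether equal fold changes or equal amounts count as no difference. Other named genes of this kind included EDEM1, GDF15, FOSB, BMP4 and NT5E.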
